A study of Mus musculus with 2 samples.

Results

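The natriuretic peptide system of the heart was described through 7 genes, taken by name as every row annotated to Nppa, Nppb, Corin, Furin, Npr1, Npr2 or Npr3. All 7 had reads, of 15031 annotated genes with reads. Heart tissue of female B6CASTF1/J mice, a first-generation hybrid strain, was collected at 18 to 20 months of age and sequenced with long reads, each of which may span a transcript from end to end. The series formed 1 group of 2 libraries, replicate 1 and replicate 2, each from 2 µg of RNA, with no treatment or genotype contrast in the labels. The labels assign the libraries to different biological samples but to 1 donor entry, so SDs measure only the spread between these samples, which may be technical.

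Atrial natriuretic peptide (Nppa) and brain natriuretic peptide (Nppb) are hormones of heart muscle that are made as longer precursors and cut on their way out of the cell. Corin, a membrane-bound serine protease of heart muscle, cuts the atrial precursor, and furin, a general protease of the secretory pathway, can cut the brain peptide precursor. Npr1 and Npr2 are receptors that make cyclic GMP when bound, Npr1 for both heart peptides and Npr2 mainly for C-type natriuretic peptide, while Npr3 lacks the cyclase domain and removes the peptides from the circulation. In the adult heart Nppa is known mainly from the atria, and both peptide genes are known to be induced in the ventricle under load.

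Replicate 1 held 630211 mouse reads and replicate 2 held 664319, so that 1 read equalled 1.61 and 1.48 CPM in turn (reads per 1000000 mouse reads, scaled by TMM). The 7 genes took 751 reads in replicate 1 and 1509 reads in replicate 2. Heart muscle markers (Myh6, Tnnt2, Tnni3, Actc1 and Ttn) were all detected, at a summed 19016 CPM in replicate 1 and 17114 CPM in replicate 2. The libraries also differed in markers of other cells. Markers of blood summed to 24613 CPM in replicate 1 and 9506 CPM in replicate 2, those of fat to 37.0 and 518 CPM, and those of airway to 0 and 539 CPM. The exact two-sided tests compare these 2 libraries and not conditions, and they and the bracketed 95% Clopper-Pearson intervals cover counting error only.

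The peptide hormones led the order of mean levels, followed by Corin, while Furin and the receptor Npr2 were close. In replicate 1 Npr2 (12 reads) was above Furin (11 reads), and 16 of the 20 Furin reads of replicate 2 were of the genomic class. Nppa averaged 1511 ± 810 CPM, Nppb 107 ± 84.8 CPM, Corin 47.3 ± 8.16 CPM, Furin 23.7 ± 8.48 CPM, Npr2 20.0 ± 1.04 CPM, Npr3 7.61 ± 3.93 CPM and Npr1 6.99 ± 1.49 CPM (SD, n = 2). Nppa ranked 101st of all genes by CPM and Nppb 1171st. The order was the same per kilobase of the leading known transcript, with 1747 CPM per kb for Nppa, 138 for Nppb, 9.74 for Corin, 5.53 for Furin, 5.48 for Npr2, 3.12 for Npr3 and 1.72 for Npr1. Since each read may span a whole transcript, these values are no correction of the levels. For Furin the leading known transcript had only 1 read in each library. The libraries' ranges overlapped between Nppb and Corin, between Furin and Npr2, and between Npr3 and Npr1. Within each library Nppb was above Corin, with 104 against 33 reads in replicate 1 and 32 against 28 in replicate 2. Furin and Npr2 changed order between the libraries, as did Npr3 and Npr1. Nppa stood apart, since its lower library (938 CPM) was above the higher library of Nppb (167 CPM).

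**Figure D1:**
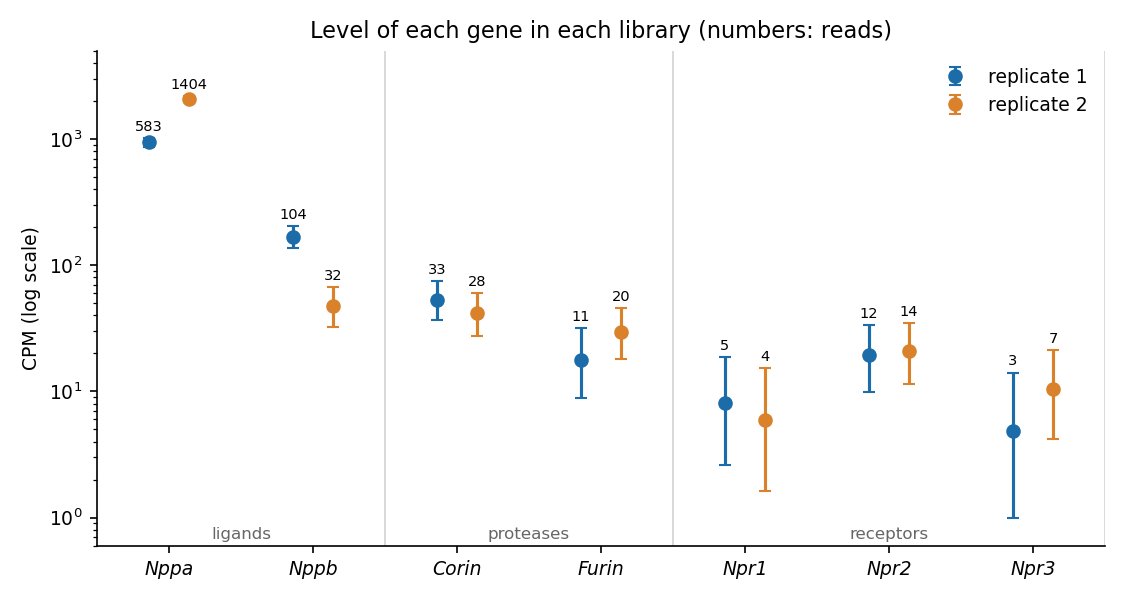
Level of each gene in CPM on a log axis, replicate 1 in blue to the left of replicate 2 in orange, with bars for the exact 95% interval of counting error and the reads printed above. Nppa is higher in replicate 2 and Nppb in replicate 1, with intervals that do not overlap, while the paired intervals of each other gene overlap.

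Nppa had 583 reads (938 CPM) in replicate 1 and 1404 reads (2084 CPM) in replicate 2. Nppb had 104 reads (167 CPM) in replicate 1 and 32 reads (47.5 CPM) in replicate 2. Replicate 2 was thus the high library for the atrial peptide and replicate 1 the high library for the brain peptide. Of 6 members with at least 10 reads over both libraries, 2 were called at an adjusted p under 0.05, against 156 of 7545 genes tested (2.07%). A given ratio is called more readily with more reads. Among genes with at least 50 reads over both libraries, 2 of 3 members and 161 of 2897 genes were called. Nppa was higher in replicate 2, with a log2 ratio of replicate 1 over replicate 2 of -1.15 (exact binomial test, Benjamini-Hochberg adjusted p = 4.13e-61). Nppb was higher in replicate 1, with a log2 ratio of 1.80 (exact binomial test, adjusted p = 3.56e-09). Calls towards replicate 1 numbered 65, or 0.861% of genes tested, and calls towards replicate 2 numbered 91, or 1.21%.

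The balance of the peptide genes within a library does not depend on the scaling of library size. Nppa gave 5.61 reads per Nppb read in replicate 1 [4.54 to 6.97] and 43.9 in replicate 2 [30.9 to 64.4]. Expressed as a share of the reads of both hormones, Nppa made 84.9% in replicate 1 [82.0 to 87.5] and 97.8% in replicate 2 [96.9 to 98.5]. Summed over all 7 members, most of it Nppa, the level reached 1208.5 CPM in replicate 1, against 2240 CPM in replicate 2.

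Atrial light chain genes and Sln were higher in replicate 2, as Nppa was. Myl4, an atrial myosin light chain, had 274 reads in replicate 1 and 803 in replicate 2. Myl7, the other atrial light chain, had 170 and 431 reads in the same order, and Sln, a small inhibitor of the calcium pump, had 95 and 271. All 3 were called higher in replicate 2 (exact binomial test, adjusted p = 4.32e-49, 2.96e-20 and 1.97e-15), and they summed to 867 CPM in replicate 1 and 2234 CPM in replicate 2. Set against these genes, Nppa gave 108 reads per 100 of their reads in replicate 1 [96.0 to 122] and 93.3 in replicate 2 [86.7 to 100.4]. These intervals overlap, but the difference between the ratios was not tested. Against the ventricular light chains Myl2 and Myl3, Nppa gave 7.42 reads per 100 in replicate 1 [6.81 to 8.07]. In replicate 2 it gave 18.2 [17.2 to 19.2], an interval that does not overlap the first. Of 9 atrial genes listed, all had reads and 7 were tested. Myl4, Myl7 and Sln were called higher in replicate 2, and the other 4 were not called, among them Dkk3 (52 and 93 reads) and Kcna5 (13 and 15 reads). Nr2f2, which was not tested, had 6 and 3 reads. Bmp10, an atrial growth factor, had 0 reads in replicate 1 and 1 in replicate 2. In bulk tissue, fewer cells of a type and less RNA per cell cannot be told apart, and the part of atrial tissue in the Nppa difference was not tested.

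Nppb differed in the direction opposite to the atrial genes. It gave 19.3 reads per 100 reads of Myl4, Myl7 and Sln in replicate 1 [15.5 to 23.8] and 2.13 in replicate 2 [1.45 to 3.01]. Against the ventricular light chains Myl2 and Myl3 it gave 1.32 reads per 100 in replicate 1 [1.08 to 1.61] and 0.414 in replicate 2 [0.283 to 0.585]. Against Myh7, the slow myosin heavy chain that is induced with Nppb in the loaded ventricle, it gave 81.3 reads per 100 in replicate 1 [62.1 to 106] and 69.6 in replicate 2 [42.9 to 112]. The last pair of intervals overlap, but the difference between these ratios was not tested. Myh7 itself had 128 reads in replicate 1 and 46 in replicate 2 (log2 ratio 1.58, exact binomial test, adjusted p = 1.67e-09). The ratios of Nppb and Nppa to muscle genes were chosen after the values were seen. Of 7 stress genes in the annotation, 6 were tested, Myh7 was higher in replicate 1, and Ankrd1, a stress-responsive muscle protein, was higher in replicate 2 (139 and 246 reads, adjusted p = 0.000295 by the same test). The other 4 tested were not called, among them Acta1 (294 and 242 reads) and Rcan1 (87 and 98 reads).

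Among 1612 genes with at least 100 reads over both libraries, 21 had a ratio as low as that of Nppa or lower, and 4 had a ratio as high as that of Nppb or higher, the peptide genes themselves included. The genes nearest to Nppa in log2 ratio over these 2 libraries were Agpat2 (-1.13), Ifi27l2a (-1.18), Sesn1 (-1.22), Myl7 (-1.22) and Lmod2 (-1.01). The nearest to Nppb were G0s2 (1.77), Myh7 (1.58), Manf (1.53), Hbb-bt (1.47) and Hbb-bs (1.39). With 2 libraries this likeness rests on a single ratio per gene.

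**Figure D2:**
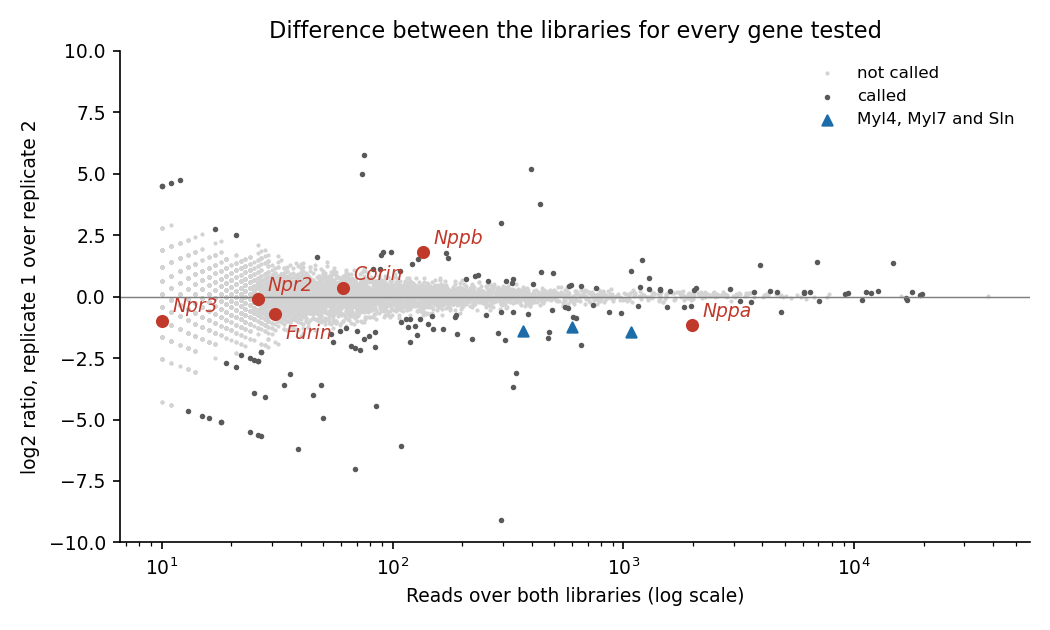
Log2 ratio of replicate 1 over replicate 2 against the reads over both libraries (log axis) for the 7545 genes tested, with called genes in dark grey. The 6 tested members are red, and Myl4, Myl7 and Sln are blue triangles. Nppa lies beside the 3 atrial genes below 0, Nppb lies above 0, and Corin, Furin, Npr2 and Npr3 lie among the genes that were not called.

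Both hormone genes were read almost wholly as their annotated transcript. Nppa-201, with 3 exons and 865 bases, took 567 of 583 reads in replicate 1 and 1371 of 1404 in replicate 2, or 97.5 ± 0.279%. Nppb-201, with 3 exons and 781 bases, took 93 of 104 reads in replicate 1 and 29 of 32 in replicate 2, or 90.0 ± 0.850%. Across all annotated genes, reads of known transcripts made 69.3 ± 0.937%. The hormone transcripts are short, and the mean spliced length of all models was 868 ± 1.64 bases for Nppa reads and 751 ± 4.94 bases for Nppb reads, against 1481 ± 16.6 bases for all genes. The part of transcript length in the high known share was not tested.

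Most of the remaining Nppa reads came from models with unspliced intron sequence. A model of 968 bases that runs through the 103-base intron 1 had 5 reads in replicate 1 and 21 in replicate 2. It made 0.873% of the reads that cover this intron in replicate 1 [0.284 to 2.02] and 1.51% in replicate 2 [0.934 to 2.29], which overlap. Models that run through the whole 390-base intron 2 had 11 reads in replicate 1, or 1.89% [0.946 to 3.35], and 3 reads in replicate 2, or 0.215% [0.0443 to 0.627], which do not overlap. Of these, a spliced model that keeps the intron had 1 read in replicate 1 and 3 in replicate 2. The other 10 reads of replicate 1 were of an unspliced genomic-class model. The genomic-class model of replicate 2, with 8 reads, starts inside intron 2 and so was not counted there. The difference in intron 2 was not tested. A single read in replicate 2 used an acceptor 15 bases before the annotated start of exon 2.

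Nppb showed a shifted acceptor of 3 bases. The annotated junction from exon 1 to exon 2 was used by 94 reads in replicate 1 and 29 in replicate 2, and the acceptor 3 bases further on, at 147986299, by 2 reads and 1 read. A suffix model that begins at that same base had another 3 reads in replicate 1 and 0 in replicate 2. The skipped bases, in capitals in the spliced sequence of Nppb-201 below, are codon 43 in frame, and they end in AG as an acceptor does. Single-exon matches to the last exon had 4 reads in replicate 1 and 2 in replicate 2. A new donor within exon 1 and a retained intron 2 had 1 read each in replicate 1 and 0 in replicate 2.
Nppb exon 1 to exon 2: caattcaagatgcagAAGctgctggagctg

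**Figure D3:**
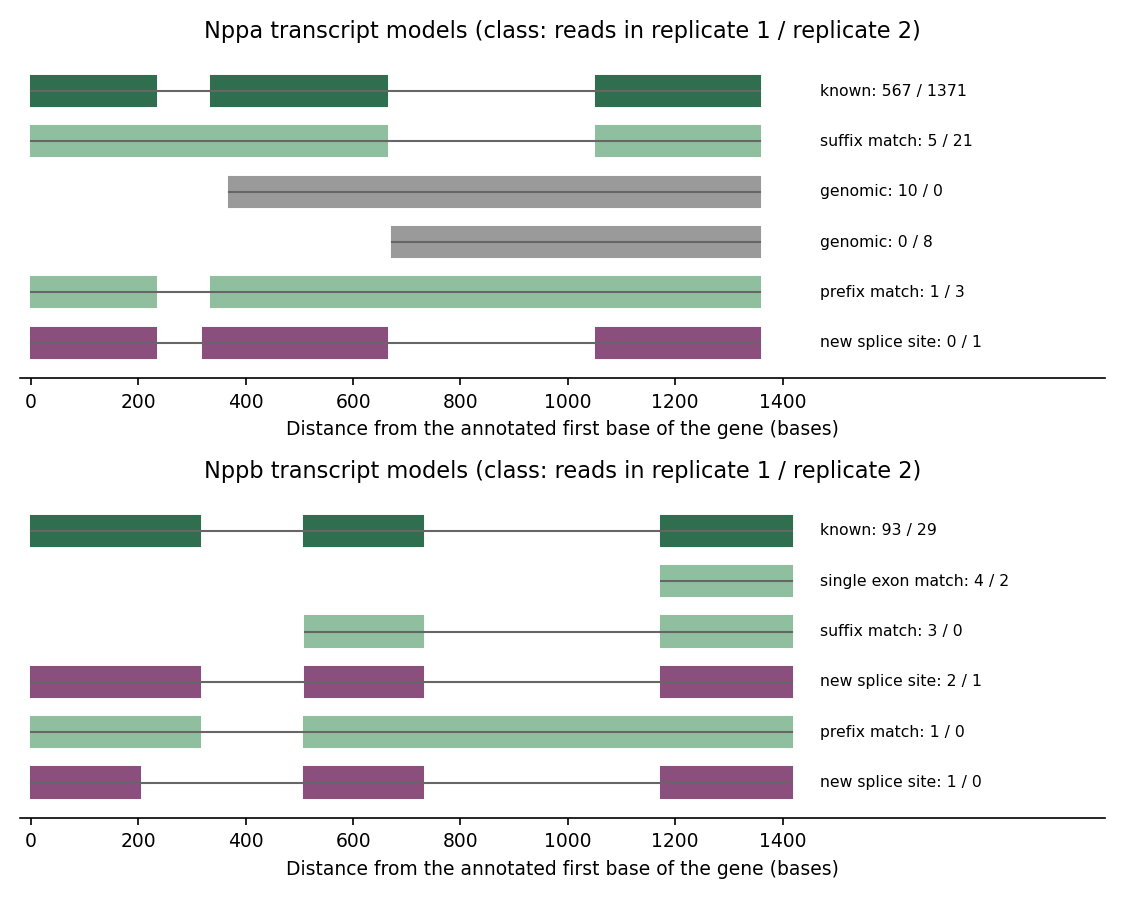
Transcript models of Nppa and Nppb drawn to scale by distance in bases from the first base of each gene, boxes for exons and lines for introns, with class and reads in replicate 1 and then replicate 2 at the right. The annotated 3-exon model holds 567 and 1371 of the Nppa reads and 93 and 29 of the Nppb reads, and each other model holds at most 21 reads.

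The hormone genes are neighbours on chromosome 4. Nppb spans chr4:147985788-147987205 and Nppa chr4:148000722-148002079 (mm10, GENCODE M21), both on the plus strand with 13516 bases between them. All 687 reads of replicate 1 and 1436 reads of replicate 2 in this stretch lay on the plus strand, and none on the minus strand. Gm13054, annotated on the minus strand over exon 2 of Nppa and beyond (chr4:148001091-148004014), had 0 reads in both libraries, and a count of 0 allows up to 3 reads. Of 5 other neighbours with reads 4 were tested and 0 were called by the exact binomial test. The chloride transporter gene Clcn6 had 7 reads in replicate 1 and 5 in replicate 2, Plod1 22 and 24, Agtrap 18 and 14, and 2510039O18Rik 55 and 48.

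The region just before Nppa is shown because the neighbouring peptide genes differed in opposite directions. Promoters of all 7 members were matched in RefSeq (GRCm38.p6). The 250 bases before the start of Nppa, chr4:148000472-148000721 on the plus strand, are printed with the searched motifs in capitals. Searched on both strands were the TATA box as TATAAA, the motif of GATA factors as GATAA, that of Nkx2-5 as TNAAGTG, that of T-box factors as TCACACC, that of TEAD factors as CATTCC and the CArG box of Srf. No match overlapped another. GATAA occurred in a pair, at -121 on the plus strand and -75 on the minus strand, TNAAGTG at -241, TCACACC at -250 and TATAAA at -9 from the RefSeq start, while CATTCC and the CArG box were not among these letters. The shares of all 32851 RefSeq promoters with a match in the same length were 22.6% for GATAA, 10.1% for TNAAGTG, 3.33% for TCACACC, 12.4% for TATAAA, 12.6% for CATTCC and 1.47% for the CArG box. These shares do not tell single matches from pairs, so a pair of GATAA matches has no background here.
Nppa promoter: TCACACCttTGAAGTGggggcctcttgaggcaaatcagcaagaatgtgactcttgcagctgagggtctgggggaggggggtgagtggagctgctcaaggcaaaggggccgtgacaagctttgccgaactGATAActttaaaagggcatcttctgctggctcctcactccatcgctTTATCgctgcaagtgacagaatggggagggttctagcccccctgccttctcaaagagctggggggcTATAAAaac

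In Nppb the RefSeq start lies 112 bases inside the first exon of GENCODE, so only a window of 30 bases is shown, chr4:147985793-147985822 on the plus strand. It holds CATTCC on the minus strand and GATAA at -94 and -83 from the RefSeq start, in capitals, and TATAAA lay at -31. All of these matches lie inside the first exon of GENCODE, unlike those of Nppa. Of 20 transcription factor genes listed for these promoters 19 had reads, 13 were tested, and 1 was called, higher in replicate 1. It was Gata4, with 55 reads in replicate 1 and 27 in replicate 2 (log2 ratio 1.13, exact binomial test, adjusted p = 0.0312). Nkx2-5 had 74 and 62 reads and Srf 32 and 29 in the same order, and neither was called. A match is a description of letters, and binding was not measured.
Nppb start region: caGGAATGcagctGATAAatcagaGATAAc

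Corin, the protease that cuts the atrial precursor, had 33 reads in replicate 1 and 28 in replicate 2, on chr5:72300025-72504473, minus strand. Its levels of 53.1 and 41.6 CPM gave a log2 ratio of 0.35, which was not called (exact binomial test, adjusted p = 0.91). Corin was the most varied member, with 27 models for 61 reads, of which 7 had reads in both libraries and 16 rested on a single read. Known transcripts took 11 reads in replicate 1 and 8 in replicate 2, or 31.0 ± 3.37%.

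The 2 annotated coding forms of Corin with reads differ in their first exon and so in the stretch of protein inside the cell. Corin-201 had 9 reads in replicate 1 and 7 in replicate 2, and Corin-202 had 2 reads and 1 read. Counting every read that reached a first exon, the donor of Corin-201 was used by 12 of 21 reads in replicate 1 and 13 of 17 in replicate 2, and that of Corin-202 by 2 reads and 1 read. The coding parts of both first exons are shown with the start codon in capitals, at chr5:72503882-72504148 and chr5:72504371-72504439, minus strand, from GENCODE M21.
Corin-201 first exon: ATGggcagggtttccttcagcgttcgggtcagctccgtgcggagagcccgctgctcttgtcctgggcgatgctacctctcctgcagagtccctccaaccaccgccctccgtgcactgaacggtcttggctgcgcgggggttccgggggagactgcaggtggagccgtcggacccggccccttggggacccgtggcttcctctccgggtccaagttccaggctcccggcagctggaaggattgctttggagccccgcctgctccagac
Corin-202 first exon: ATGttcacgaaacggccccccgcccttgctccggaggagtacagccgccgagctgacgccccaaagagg

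The other reads with a first exon used donors within intron 1 of Corin-201. A small exon of 36 or 37 bases, starting in the genome at 72501843 and not annotated as a first exon, was spliced to exon 2 in 5 reads of replicate 1 and 2 reads of replicate 2. These reads then followed the annotated chain of exons to the 3′ end, in models of 22 exons that were 5822 bases long in replicate 1 and 4573 bases long in replicate 2. A related donor 8 bases away had 1 read in replicate 1 and 0 in replicate 2. Longer exons of 626 bases and 595 bases in the same intron had 1 read each, in replicate 1 and in replicate 2.

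Fewer Corin reads covered the 5′ introns than the last. The last intron was spliced in 30 reads of replicate 1 and 27 of replicate 2, and intron 2 in 22 and 18 reads. A first exon was reached by 21 and 17 reads, of which 12 and 13 spliced the first intron of Corin-201 and the others used another donor. The 7 suffix models with at least 2 reads, which lack first exons, had between 4 and 21 exons and 2 to 4 reads each over both libraries. Of all Corin reads, 9 in replicate 1 and 11 in replicate 2 fell to suffix models. A genomic-class model of 633 bases at the 3′ end had 3 reads in replicate 1 and 0 in replicate 2.

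Furin, the general precursor convertase, had 11 reads (17.7 CPM) in replicate 1 and 20 reads (29.7 CPM) in replicate 2, on chr7:80388585-80405436, minus strand. Its log2 ratio was -0.72 and was not called (exact binomial test, adjusted p = 0.83), and without the genomic class, which holds 16 of the reads of replicate 2, it was 1.46 (adjusted p = 0.53). Most Furin reads lay within the last exon of 2103 bases, 8 of 11 in replicate 1 (72.7% [39.0 to 94.0]) and 16 of 20 in replicate 2 (80.0% [56.3 to 94.3]). These reads were classed differently by the deposited annotation, as an incomplete match of 2101 bases with 8 reads in replicate 1, and as a genomic-class model of 424 bases with 15 reads in replicate 2. The annotated Furin-203, with 16 exons and 4286 bases, had 1 read in each library, and a 2-exon suffix model had 0 reads in replicate 1 and 2 in replicate 2. Known transcripts made 7.05 ± 2.89% of Furin reads, the lowest mean share of the 7 genes. In replicate 1 alone the Npr1 share was lower, at 0 of 5 reads.

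The other convertases and peptidases listed had few reads or none, except Ece1, which averaged 109 CPM. Of the Ece1 reads, 0 were of known transcripts in both libraries. Of 7 proprotein convertases listed 4 had reads and 2 were tested, Mbtps1 with 7 reads in replicate 1 and 15 in replicate 2 and Pcsk7 with 4 and 9, and neither was called. Pcsk5 had 0 and 3 reads. Of 8 other ligands and peptidases 5 had reads and 2 were tested, and neither Ece1 (61 and 81 reads) nor Ide (16 and 19 reads) was called. Dpp4 had 3 and 6 reads, and Mme, the peptidase neprilysin that degrades natriuretic peptides, had 1 and 3. Nppc, the gene of C-type natriuretic peptide, had 0 reads in both libraries.

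**Figure D4:**
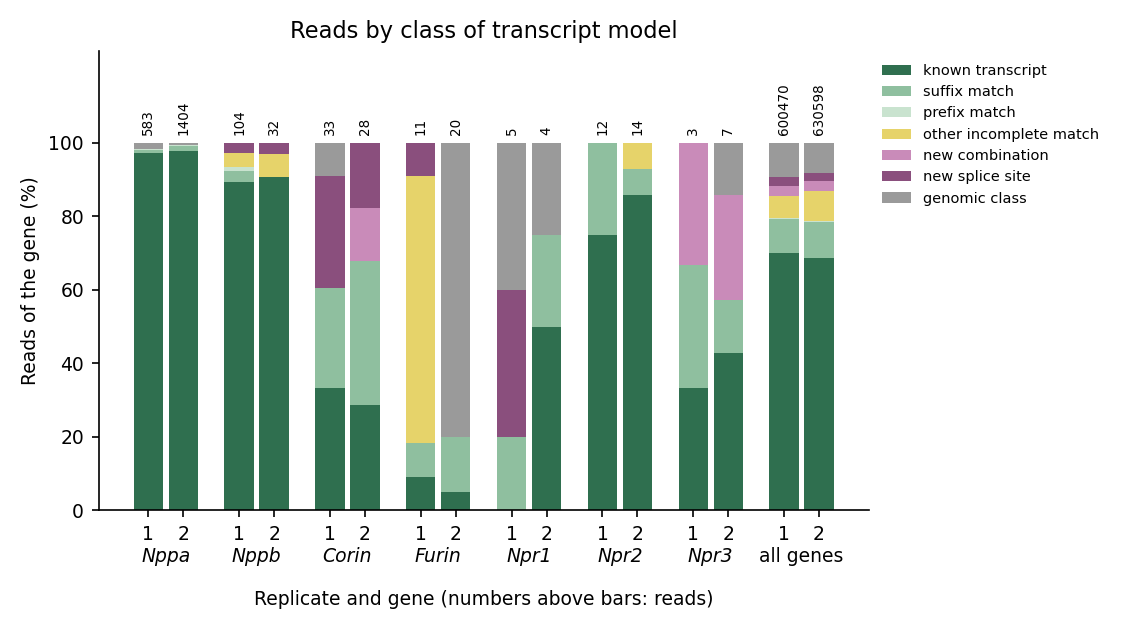
Percent of each gene's reads by class of transcript model, replicate 1 left of replicate 2, with reads above the bars and all annotated genes at the right. Known transcripts make most of the reads of Nppa, Nppb and Npr2 and a minority of those of Corin and Furin, and Furin reads fall to different classes in the 2 libraries.

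Npr2, the receptor for C-type natriuretic peptide, was the most read of the receptors, with 12 reads (19.3 CPM) in replicate 1 and 14 reads (20.8 CPM) in replicate 2, on chr4:43631935-43651244, plus strand. Its log2 ratio was -0.10 (exact binomial test, adjusted p = 1). The annotated 22-exon Npr2-201 of 3660 bases took 9 of 12 reads in replicate 1 and 12 of 14 in replicate 2, so that 80.4 ± 7.58% of the reads were of known transcripts. Its 5 other models had 1 read each. The first intron was spliced in 9 reads of replicate 1 and 12 reads of replicate 2, and the last in 12 and 13.

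Npr1, the receptor for both heart hormones, had 5 reads (8.05 CPM) in replicate 1 and 4 reads (5.94 CPM) in replicate 2, on chr3:90450591-90465866, minus strand. With 9 reads it fell below the minimum of 10 and was not tested. The annotated 22-exon Npr1-201 had 0 reads in replicate 1 and 2 in replicate 2. A genomic-class model of 120 bases at the 3′ end had 2 reads and 1 read. A single read in replicate 1 had 23 exons, with an added exon upstream of the annotated start.

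Npr3, the clearance receptor, had 3 reads (4.83 CPM) in replicate 1 and 7 reads (10.4 CPM) in replicate 2, on chr15:11839896-11907287, minus strand. Its log2 ratio was -0.98 (exact binomial test, adjusted p = 0.91). Reads that spliced to exon 2 of Npr3-205 did so from either of a pair of exons. The first exon shared by Npr3-201 and Npr3-205 was used by 1 read in replicate 1 and 3 in replicate 2. An exon upstream of it, whose donor belongs to the second exon of another annotated Npr3 transcript, was used by 2 reads in each library. Of the latter, 1 read in replicate 1 was of a suffix model, so a start at that exon was not shown. Npr3-205 had 1 read in replicate 1 and 2 in replicate 2, Npr3-201 had 0 reads and 1 read, and a new combination of 8 exons had 1 read and 2 reads.

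Npr3 reads also used both members of an annotated acceptor pair 3 bases apart. The acceptor of Npr3-205 was used by 2 reads in replicate 1 and 3 in replicate 2, and that of Npr3-201 by 1 read and 3 reads. The spliced sequences across this junction, chr15:11846371-11848483 on the minus strand, are shown with the added bases in capitals. As in Nppb, the added bases end in AG, but in Npr3 both acceptors had like counts whereas in Nppb the annotated acceptor took nearly all reads. The difference in use between the genes was not tested.
Npr3-201 junction: ctccttgcaaatcatCAGgtggcctagaag
Npr3-205 junction: ctccttgcaaatcatgtggcctagaag

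**Figure D5:**
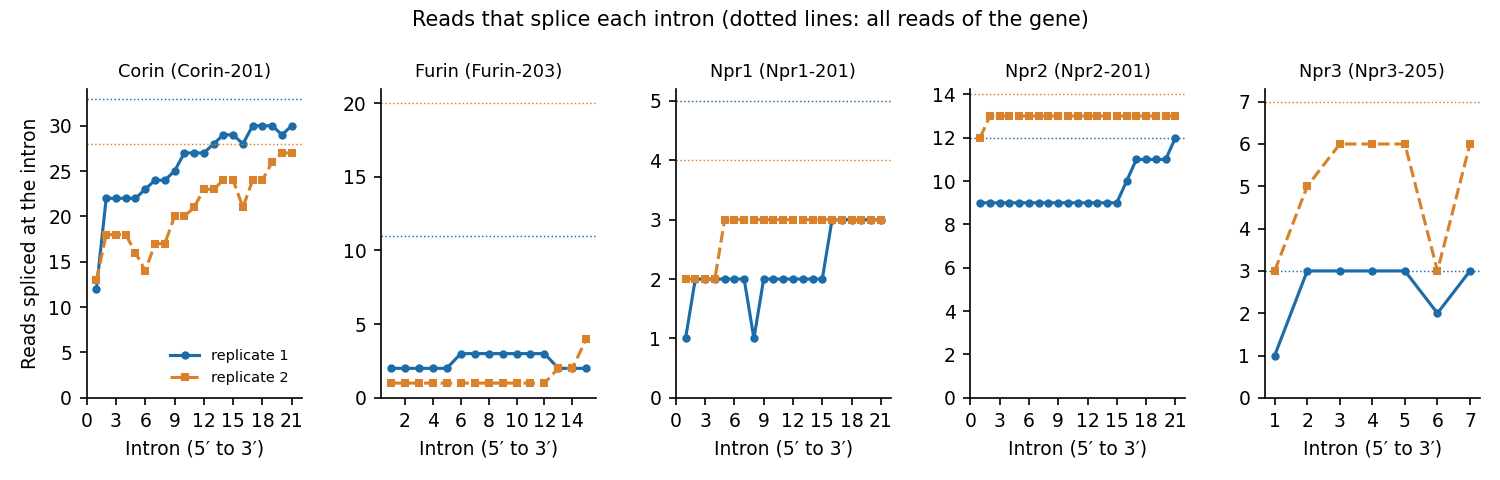
Reads that splice each intron of the leading known transcript of the proteases and receptors, numbered from the 5′ end, with replicate 1 in blue and replicate 2 in orange and all reads of the gene as dotted lines. Corin has 30 and 27 reads at the last intron, 22 and 18 at the second and 12 and 13 at the first, where the other reads with a first exon use another donor, Npr2 keeps 9 to 12 reads in replicate 1 and 12 to 13 in replicate 2, and Furin lies far below its totals of 11 and 20 reads.

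With the genomic class left out of leading-model shares, no difference between the libraries in the shares of transcript models was called for a member. By Fisher's exact test with Benjamini-Hochberg adjustment, 0 of 5 members differed in the share of known transcripts, with 0 at an unadjusted p under 0.05, against 7 of 4765 genes called (0.147%). In the share of the leading model 0 of 4 members differed, again with 0 at an unadjusted p under 0.05, against 73 of 4223 genes (1.73%). With the genomic class included Furin was called, its leading model holding 0 of 11 reads in replicate 1 and 15 of 20 in replicate 2 (Fisher's exact test, adjusted p = 0.00329). The Nppa share of known transcripts was 97.3% in replicate 1 and 97.6% in replicate 2, although its level differed by a log2 ratio of -1.15. The same share of Nppb was 89.4% and 90.6%. The 7 genes had 64 models in all, of which 19 had reads in both libraries and 36 rested on a single read.

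Downstream of the receptors, genes of cyclic GMP signalling were few in reads except for 1. Of 13 in the annotation 8 had reads and 4 were tested. Pln, phospholamban, which is phosphorylated downstream of cyclic GMP, had 9499 reads in replicate 1 and 9718 in replicate 2. After TMM scaling these were 15286 and 14425 CPM, called higher in replicate 1 with a log2 ratio of 0.08 (exact binomial test, adjusted p = 0.00441). Under total mouse reads the median log2 ratio of all tested genes was -0.041, so a ratio this small depends on the scaling. Whether the Pln call holds there was not examined. The other 3 tested were not called, including Prkg1, the cyclic GMP-dependent kinase, with 9 and 7 reads, and Rgs2 with 11 and 2 reads. Of the Prkg1 reads, 0 were of known transcripts in both libraries. Of 10 genes listed by their names as phosphodiesterases or subunits of them, 8 had reads, 4 were tested and 0 were called. Pde6d had 32 and 48 reads, Pde2a 22 and 16 and Pde1c 12 and 17, while Pde5a and Pde9a had 0 reads in both libraries. Known transcripts took 0 of the Pde2a reads in both libraries. Of 6 ventricular genes listed 5 were tested and 3 were called higher in replicate 1, Myl2 (log2 ratio 0.18), Myl3 (0.12) and Fhl2 (0.39), with adjusted p between 9.73e-05 and 0.00807 by the same test. Myl3 had 4568 reads in both libraries, so its direction comes from the scaling for library size.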

How the data were processed

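Counts of long reads were deposited by the authors as raw values for each transcript model, per the file headers, and no file gives them normalized. The models name TALON as their source, and deposited notes give mm10 and GENCODE M21. Aligner, versions and filtering steps were not given in the sources used here. Each library was annotated separately, and models without reads are not listed. Between libraries, known transcripts were paired by identifier, spliced new models by their introns, and unspliced ones by 50% reciprocal overlap. A known model carries the annotated ends, so the ends of single reads were not seen. Levels used TMM (edgeR 4.0.16, R 4.3.3) on genes with at least 10 reads. Genes with at least 10 reads over both libraries were tested by an exact binomial test, and shares with at least 10 reads in each library by Fisher's exact test (scipy 1.17.1), with Benjamini-Hochberg adjustment over all genes tested. Both were tested on simulated data with counting error only, which does not cover differences in tissue between samples. An alternative scaling used DESeq2 1.42.0. Named were all members, their known models, models with 2 or more reads, the 3 most abundant genes of each list and every called gene; others were named after their values were seen. The members and lists were chosen with earlier results of these data known. Sequence came from GENCODE M21 and RefSeq (C57BL/6J reference), and alleles of the hybrid were not told apart.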

Additional observations from a re-analysis of the deposited data

How the results depend on the processing

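No paired analysis was possible because the series has 1 group, so no groups share replicate numbers. Under total mouse reads, DESeq2 size factors, read minimums of 1 or 50, known transcripts only and no genomic class, 2 members stayed called, Nppa and Nppb in the same directions. The count over all genes was 156, against 102 with known transcripts only, where 5399 in place of 7545 genes were tested, and 216 of 6712 without the genomic class. The split of higher in replicate 1 and in replicate 2 was 65 and 91, against 84 and 77 with at least 50 reads and 51 and 106 under total mouse reads. Without the genomic class the Furin log2 ratio was 1.46 (exact binomial test, adjusted p = 0.53), the opposite sign of -0.72, because 16 of its 20 reads in replicate 2 carry that class. With that class included, 1 member differed in leading-model share, Furin, at 0 of 11 reads in replicate 1 and 15 of 20 in replicate 2 (Fisher's exact test, adjusted p = 0.00329), where the same exon carries different models. Uncalled shares changed sign. The Nppa known share differed by 0.744 points without the genomic class, and its leading share by -0.394 with it. With incomplete matches added, leading shares differed by -4.29 points for Corin, 7.14 for Npr2 and 2.64 for Nppb. Leaving out a library gave an Nppa percent of 84.9 to 97.8, a summed level of 1208.5 to 2240 CPM and a known percent of 90.8 to 94.5. Depth limits the receptors, where 1 read moves a level by at least 1.48 CPM.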
